A study of Mus musculus with 96 samples.

Results

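Klf2, Klf4, Klf5, Esrrb, Tfcp2l1, Tbx3, Prdm14, Zfp42, Nr0b1 and Nr5a2 encode nuclear factors of the naive pluripotent state. These 10 genes were taken as a list of names from the 37620 genes of the count tables, with no threshold on their values but with earlier results of these data known. Their mRNA was followed through all 7 RNA-seq comparisons of a study of RYBP, WDR5 and STAT3 in mouse embryonic stem cells (ESCs), and the ChIP-seq peaks at their loci were taken from 14 peak lists. All 10 passed the filter on low counts in every comparison. ESCs were cultured in serum with LIF, and each RNA-seq group held 2 libraries. Nothing in the labels says that the 2 libraries came from separate cultures, so the p-values measure only the spread between libraries.

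The knockout comparison used R7.15 ESCs with floxed Rybp. Rybp-/- ESCs were obtained with 5 µM 4-hydroxytamoxifen (4-OHT) over 4 days, and Rybp+/+ ESCs were the controls, so the loss of Rybp and the exposure to 4-OHT cannot be told apart. For the knockdowns, R1 ESCs carried shRybp, shWdr5 or the empty vector shEV, and the same shEV libraries serve both knockdowns. Wild-type R1 ESCs (WT ESC) were set against the TF-AA mutation, whose nature the labels do not give. The RYBP phase disruption was made in R7.15 ESCs of genotype RYBPfl/fl Rosa26::CreERT2 that carry RYBP with a deletion of 21 amino acids. Its control, WT.RYBP, had the same alleles and overexpressed WT RYBP, and both groups received 4-OHT. RYBP was induced in J1 ESCs (Tet on.RYBP) with doxycycline (DOX) against vehicle. The rTRS line carries a DOX-induced Rybp_Stat3 integration and was sequenced as NTC and DOX. The labels do not say how many clones any line represents. ChIP-seq was of H3K4me3, H3K27ac, WDR5 and STAT3 in Rybp+/+ and Rybp-/- R7.15 ESCs, of STAT3 and RING1B in R1 ESCs with the same integration (Tet.Rybp.Stat3) without and with DOX (DOX- and DOX+), and of RING1B in R1 ESCs carrying shEV or shStat3.

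Naive pluripotency is the state of the epiblast before implantation, and mouse ESCs hold it in culture through LIF, whose receptor activates STAT3, and through WNT signalling, which relieves repression by TCF7L1. The factors described here form the network below these inputs, cooperate with OCT4, SOX2 and NANOG, and fall as cells pass to the formative and primed states. RYBP is a subunit of variant Polycomb repressive complex 1, in which RING1B ubiquitinates histone H2A. WDR5 is a subunit of the COMPASS complexes that methylate histone H3 at lysine 4.

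Between 14512857 and 81049618 counts fell on genes per library. The markers fixed for ESCs (Pou5f1, Sox2, Nanog, Sall4, Lin28a, Dppa4, Utf1 and Tdgf1) summed to between 2900 and 6019 CPM (gene counts scaled to a common library size) in every library, and none of the 8 had a mean under 1 CPM. The targeted genes went with the labels in the knockout, where Rybp was at 110 and 110 CPM in Rybp+/+ and at 24.8 and 25.0 CPM in Rybp-/- libraries, in both knockdowns (Rybp log2 fold change -1.25, Wdr5 -2.55) and in the J1 induction (Rybp 1.91). In the rTRS line Rybp did not rise. It was at 113 and 110 CPM in NTC and at 102 and 99.8 CPM in DOX libraries (log2 fold change -0.15, adjusted p = 0.0762), and Stat3 at 159 and 172 against 191 and 188 CPM (0.20, adjusted p = 0.0259). The Stat3 call was lost without NTC replicate 1 (0.14, adjusted p = 0.261), DOX replicate 1 (0.19, adjusted p = 0.0955) or DOX replicate 2 (0.21, adjusted p = 0.0546), with the value above 0 each time. As Rybp did not go with the label, these are called the libraries labelled DOX. In bulk RNA, fewer cells of a type and less RNA per cell cannot be told apart.

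The factors differed widely in level. Per length, Klf2, a zinc finger factor of the KLF family, was the highest of the 10 in Rybp+/+ ESCs (271 and 298 RPKM, counts scaled to gene length and library size) and in the WT.RYBP controls of the phase disruption (151 and 157 RPKM). In the controls of the TF-AA, J1 and rTRS comparisons Zfp42, which encodes the zinc finger protein REX1 and is a widely used reporter of naive cells, was the highest, at 572 and 572, 556 and 562, and 489 and 499 RPKM. In the shEV libraries the ranges of Klf2 (694 to 1015 RPKM) and Zfp42 (767 to 776 RPKM) overlapped, so their order was not resolved. Prdm14 was the lowest in the controls of all 7 comparisons, between 4.04 and 16.9 RPKM, and Nr5a2 was the next lowest in each.

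Neighbours in the order whose control libraries overlapped were, besides Klf2 and Zfp42 in shEV, Klf4 and Nr0b1 in WT ESCs, Klf2 and Esrrb in the J1 vehicle libraries, and Klf4 and Tfcp2l1 in the NTC libraries. The level of Zfp42 went with the line. It was 127 and 119.5 CPM in Rybp+/+ and 121 and 118 CPM in WT.RYBP libraries, both R7.15, but 1381 and 1397 CPM in shEV, 1030 and 1030 CPM in WT ESC, 1000 and 1012 CPM in J1 vehicle and 881 and 897 CPM in NTC libraries. These tables were counted separately, so the difference between lines was not tested.

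**Figure D1:**
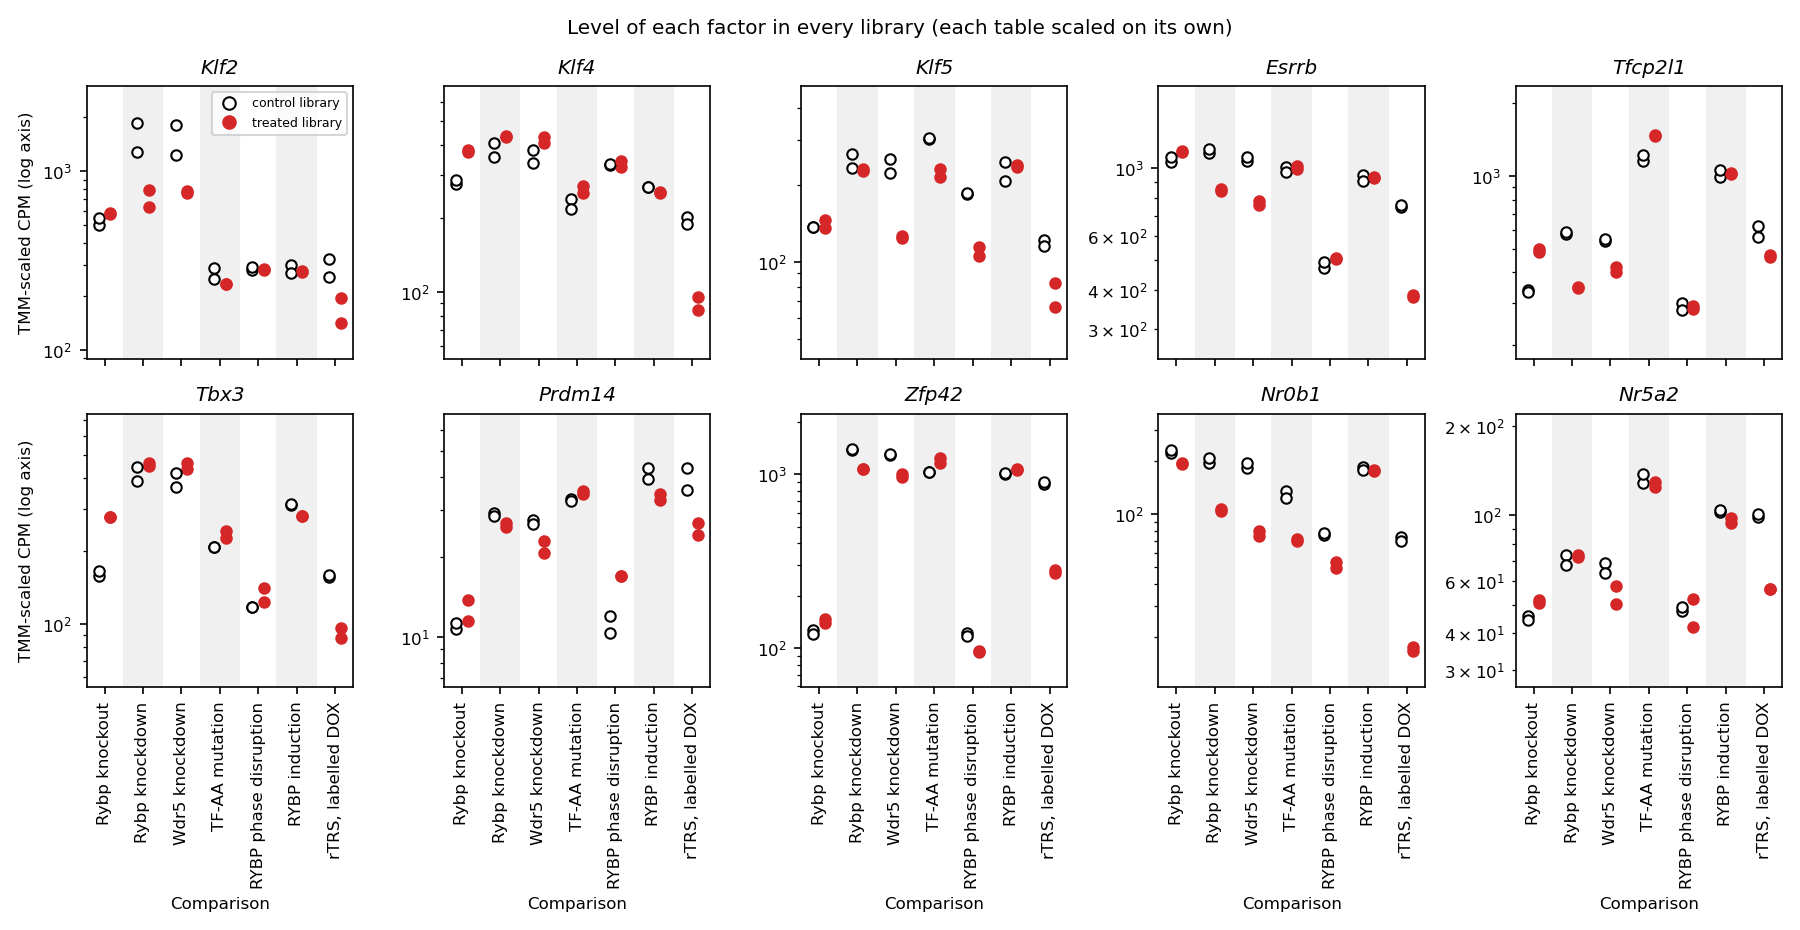
TMM-scaled CPM (log axis) of each of the 10 factors in every library of the 7 comparisons, with open dots for control and red dots for treated libraries. Zfp42 lies between 118 and 127 CPM in the R7.15 controls and above 880 CPM in all other controls, and each table is scaled on its own.

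In the knockout of Rybp, 7 of the 10 factors were higher in Rybp-/- than in Rybp+/+ ESCs, 1 was lower and 2 were not called (quasi-likelihood test of edgeR, p-values adjusted by Benjamini-Hochberg across all genes tested, adjusted p under 0.05, as in every comparison). Of all 16955 genes tested, 22.8% were called higher and 22.7% lower. Both Rybp-/- libraries lay above both controls for 8 factors and below both for 1, against 35.8% and 35.1% of all genes. The median log2 fold change of the 10 factors was 0.19, against 0.00 for all genes tested.

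Tbx3, a T-box factor acting below LIF and PI3K signalling, had the largest rise, from 158 and 166 CPM in Rybp+/+ to 277 and 276 CPM in Rybp-/- libraries (log2 fold change 0.77, SE 0.034, adjusted p = 7.33e-19). Tfcp2l1, a CP2-family factor and target of STAT3, rose from 337 and 332 to 487 and 499 CPM (0.56, SE 0.030, adjusted p = 1.80e-16). Klf4, the KLF factor that responds to LIF and STAT3, rose from 276 and 287 to 380 and 375 CPM (0.42, SE 0.032, adjusted p = 5.39e-13). For each of these genes the knockout libraries stood well apart from the controls and close to each other. Smaller rises were called for Zfp42 (0.21), Nr5a2 (0.18), an orphan nuclear receptor that binds regulatory DNA of Pou5f1, Klf2 (0.15, and 0.08 without Rybp+/+ replicate 1) and Esrrb (0.09), an estrogen-related receptor held down by TCF7L1.

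Nr0b1, which encodes the orphan receptor DAX1, a partner of OCT4 without the usual DNA-binding domain, was the factor that fell. It was at 223 and 233 CPM in Rybp+/+ and at 196 and 193 CPM in Rybp-/- libraries (log2 fold change -0.23, SE 0.034, adjusted p = 1.35e-06), and the groups did not overlap. Klf5, the remaining KLF factor, was at 137.0 and 137.1 against 146 and 135 CPM (0.03, adjusted p = 0.502), and its groups overlapped. Prdm14, a PR-domain factor that holds down FGF receptor signalling and the de novo DNA methyltransferases, was at 10.8 and 11.2 against 13.8 and 11.5 CPM (0.20, adjusted p = 0.0777). With 1 library left out the value of Prdm14 ranged from 0.06 to 0.32. Libraries decided 3 of these calls. Esrrb was not called without Rybp-/- replicate 1 (adjusted p = 0.0861) or replicate 2 (0.124), Nr5a2 was not called without Rybp-/- replicate 2 (0.0527), and Prdm14 was called without that library (0.0124).

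The other lists moved in different ways in the same libraries. Of the 8 other genes of the naive state, 4 were higher and 1 lower, among them Tcl1 (log2 fold change 0.68) and Fbxo15 (0.60) on the higher side and Fgf4 (-0.24) on the lower. Of 9 genes of the formative and primed state, 1 was higher and 7 lower, including Otx2 (-1.79) and the WNT effector Lef1 (-1.75). Nanog was higher (0.48), and Sox2 (-0.10) and Sall4 (-0.11) were lower. The fibroblast markers summed to between 56.2 and 56.8 CPM in Rybp+/+ and between 113 and 119.3 CPM in Rybp-/- libraries, with 5 of 6 higher and 1 with a mean under 1 CPM, and the trophectoderm markers to 154 to 157 and 184 to 192 CPM, with 6 of 7 higher and 2 under 1 CPM. Primitive endoderm markers went from sums of 70.5 to 72.0 to sums of 83.9 to 86.4 CPM (3 of 7 higher, 0 lower, 3 with a mean under 1 CPM), neural markers from 48.3 to 50.7 to 56.3 to 58.1 CPM (1 of 3 tested higher, 1 lower), and those of the primitive streak and mesoderm from 2.52 to 3.21 to 4.30 to 4.42 CPM (1 of 3 tested higher). The ESC markers summed to between 3926 and 3934 and between 3678 and 3690 CPM, with 1 of 8 higher and 5 lower. Their part in the values of the factors was not tested.

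Knockdown of Rybp in R1 ESCs gave another picture. Of the 10 factors 1 was higher and 5 were lower in shRybp than in shEV libraries, and 4 were not called. Of all 16538 genes tested, 52.7% were called, 26.8% higher and 26% lower. Both shRybp libraries lay above both shEV libraries for 2 factors and below both for 7, against 39.2% and 36.4% of all genes. The median log2 fold change of the factors was -0.26, against 0.02 for all genes tested.

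Klf2 had the largest fall, from 1282 and 1874 CPM in shEV to 789 and 629.7 CPM in shRybp libraries (log2 fold change -1.15, SE 0.11, adjusted p = 9.56e-08). The shEV libraries of Klf2 were themselves far apart, and the fold change was -1.41 without shEV replicate 1 and -0.86 without shEV replicate 2. Nr0b1 went from 195 and 208 to 107 and 105 CPM (-0.93, SE 0.051, adjusted p = 3.26e-11) and Tfcp2l1 from 574 and 586 to 344 and 349 CPM (-0.74, SE 0.042, adjusted p = 4.45e-11). In both genes the libraries within a group were close and the groups far apart. Esrrb, at 1118 and 1153 against 842 and 854 CPM (-0.42), and Zfp42, at 1381 and 1397 against 1066 and 1069 CPM (-0.38), were the other factors that fell.

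Klf4 was the factor that rose, from 357 and 406 to 431 and 436 CPM (log2 fold change 0.18, SE 0.052, adjusted p = 0.00580). This call was lost without shEV replicate 1 (0.09, adjusted p = 0.0995) or shRybp replicate 2 (0.17, adjusted p = 0.0512). Tbx3 was at 392 and 448 against 450 and 464 CPM (0.12, adjusted p = 0.0609) and Klf5 at 234 and 266 against 228 and 231 CPM (-0.12, adjusted p = 0.0654). Neither was called, and each was called without 1 shEV library, Klf5 without replicate 1 (-0.22, adjusted p = 8.38e-05) and Tbx3 without replicate 2 (0.21, adjusted p = 1.43e-05). With 1 library left out the values ranged from -0.22 to -0.04 for Klf5 and from 0.02 to 0.21 for Tbx3. Klf5 was also called with RLE factors (adjusted p = 0.0437), and both with no filter on low counts (0.0305 and 0.0160). Prdm14, with a log2 fold change of -0.13, and Nr5a2, with 0.04, were not called either. Of the other genes of the naive state, 5 of 8 were higher and 3 lower, with Pecam1 (0.82) and Gbx2 (-1.77) on opposite sides, and Pou5f1, which encodes OCT4, was lower (-0.66). Of the FGF and ERK genes 2 were higher and 8 lower of 10, Mapk3 (-1.48) and the feedback inhibitor Spry4 (-0.88) among the lower. Trophectoderm markers summed to between 129 and 142 CPM in shEV and between 323 and 339 CPM in shRybp libraries (5 of 7 higher, 1 lower, 1 with a mean under 1 CPM). Primitive endoderm markers went from sums of 66.0 to 69.4 to sums of 84.8 to 86.9 CPM (5 of 7 higher, 1 lower), and fibroblast markers from 18.6 to 18.8 to 30.7 to 31.9 CPM (3 of 3 tested higher, 3 of 6 with a mean under 1 CPM). The sums of neural markers were 20.3 to 21.4 and 44.4 to 49.3 CPM (1 of 3 tested higher, 1 lower, 2 of 4 with a mean under 1 CPM), and those of the primitive streak and mesoderm 4.07 to 4.27 and 13.2 to 14.2 CPM (1 of 5 higher, 1 with a mean under 1 CPM). The ESC markers summed to between 5731 and 6019 CPM in shEV and between 4655 and 4727 CPM in shRybp libraries, with 2 of 8 higher and 5 lower. The part of these cell types was not tested.

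The effects of the knockout and the knockdown were compared in a single model of both tables with an interaction term. For 9 of the 10 factors the log2 fold change was larger in the knockout than in the knockdown beyond the spread between libraries, against 40.5% of 18203 genes whose effects differed in either direction. The difference was 1.33 for Tfcp2l1 (SE 0.049, adjusted p = 4.41e-15), which rose in the knockout and fell in the knockdown, and 1.33 for Klf2 (SE 0.15, adjusted p = 1.27e-07). Zfp42 (0.61) and Esrrb (0.53) likewise rose in the first and fell in the second. Nr0b1 fell in both, and less in the knockout (difference 0.72, SE 0.060, adjusted p = 1.56e-09). The difference was 0.68 for Tbx3, 0.36 for Prdm14, 0.26 for Klf4 and 0.18 for Klf5 (adjusted p = 0.0448), and 0.16 for Nr5a2 (adjusted p = 0.0894), whose effects were not shown to differ. The knockout and the knockdown differ in line, in 4-OHT and in how much Rybp mRNA was left, and these cannot be told apart.

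**Figure D2:**
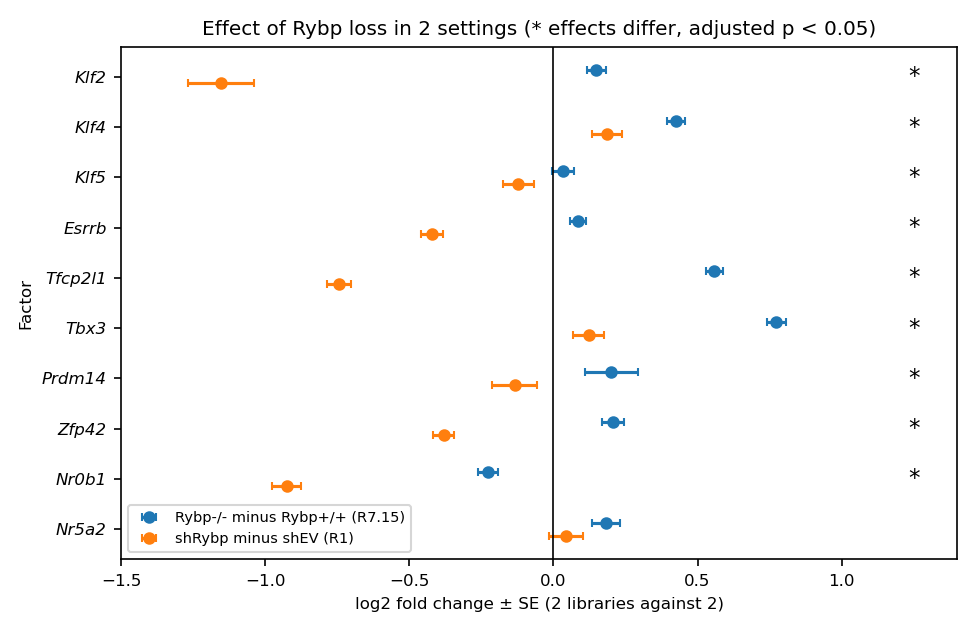
Log2 fold change with its SE (horizontal axis) for each factor after knockout of Rybp in R7.15 ESCs (blue) and knockdown in R1 ESCs (orange), 2 libraries against 2 in each, with a star where the effects differ. Blue lies to the right of orange for all 10 factors, and the widest gaps are those of Klf2 and Tfcp2l1, whose difference in the model of both tables was 1.33.

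Knockdown of Wdr5 changed all 10 factors, 2 of them upwards and 8 downwards, where 63% of the 15143 genes tested were called, 31.5% higher and 31.5% lower. The shWdr5 libraries overlapped the shEV libraries for 0 of the factors, 2 lying above and 8 below, against 40.2% and 40.8% of all genes. Their median log2 fold change was -0.41, against -0.01 for all genes tested. As this comparison uses the same shEV libraries as the Rybp knockdown, the values of both are given side by side and no overlap between them is drawn. Each knockdown also moved the other target. Wdr5 was at 372 and 364 CPM in shEV and at 265 and 260 CPM in shRybp libraries (-0.49, adjusted p = 2.69e-08). Rybp was at 79.9 and 81.3 CPM in shEV and at 121 and 117 CPM in shWdr5 libraries (0.56, adjusted p = 3.81e-09). The part of these changes in the values of the factors was not tested.

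Nr0b1 fell from 183 and 196 CPM in shEV to 80.1 and 75.1 CPM in shWdr5 libraries (log2 fold change -1.29, SE 0.054, adjusted p = 2.00e-15), against -0.93 after shRybp. Klf2 fell from 1236 and 1804 to 753 and 774 CPM (-0.99, SE 0.091, adjusted p = 2.22e-09), against -1.15 after shRybp, and its value was -1.24 without shEV replicate 1 and -0.70 without shEV replicate 2. Klf5 fell from 222 and 253 to 124 and 126 CPM (-0.93, SE 0.055, adjusted p = 1.09e-12), against -0.12 after shRybp. In each of these genes the groups did not overlap. Falls of -0.48 for Esrrb, -0.41 for Zfp42, -0.40 for Tfcp2l1, -0.32 for Prdm14 and -0.30 for Nr5a2 were also called, that of Prdm14 with an adjusted p of 0.0503 by DESeq2 and that of Nr5a2 at -0.20 without shWdr5 replicate 2.

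Klf4 rose from 336 and 382 to 406 and 429 CPM (log2 fold change 0.22, adjusted p = 0.000893, and 0.13 without shEV replicate 1), and Tbx3 from 370 and 423 to 439 and 462 CPM (0.18, adjusted p = 0.00392). The call of Tbx3 was lost without shEV replicate 1 (0.09, adjusted p = 0.0845) or shWdr5 replicate 2 (0.15, adjusted p = 0.0547), and its value was 0.28 without shEV replicate 2. Of the 7 LIF and STAT3 genes 1 was higher and 3 lower, including the STAT3 target Pim1 (-1.08), and of the 7 WNT and TCF7L1 genes 5 were higher and 1, Axin2 (-0.75), lower. Among genes of the formative and primed state, 5 of 9 were higher and 4 lower, Otx2 at 1.58 and Sox3 at -1.48. Trophectoderm markers summed to between 259 and 271 CPM in shWdr5 libraries and between 122 and 134 CPM in shEV libraries of this table (3 of 6 tested were higher and 1 lower), and ESC markers to 4537 to 4639 and 5395 to 5667 CPM (1 of 8 higher, 5 lower). The other lists are given as shEV, then shWdr5. Sums were 62.7 to 66.0 and 58.1 to 58.4 CPM for primitive endoderm (4 of 7 higher, 2 lower, with Gata6 at 2.88 and Sox7 at -1.74), and 4.16 to 4.40 and 8.69 to 9.89 CPM for the primitive streak and mesoderm (2 of 4 tested higher, 1 lower). They were 19.4 to 20.3 and 20.0 to 20.3 CPM for neural markers (2 of 3 tested higher, 1 lower) and 18.0 to 18.3 and 15.3 to 15.7 CPM for fibroblast markers (1 of 3 tested higher, 1 lower). The part of these cell types was not tested.

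In the TF-AA mutation 2 factors were higher and 2 lower than in WT ESCs, and 6 were not called. Of 14456 genes tested 30.5% were called, 14.4% higher and 16.1% lower. Both TF-AA libraries lay above both controls for 5 factors and below both for 3, against 32.3% and 31.4% of all genes. Nr0b1 again had the largest fall, from 136 and 124 to 70.5 and 71.9 CPM (log2 fold change -0.87, SE 0.082, adjusted p = 1.93e-08). Klf5 fell from 303 and 306 to 232 and 215 CPM (-0.45, SE 0.076, adjusted p = 8.21e-05). Their mutant libraries lay below both controls, and the 2 calls held without any 1 library. Tfcp2l1, at 1150 and 1227 against 1466 and 1476 CPM (0.31, adjusted p = 0.00161), and Zfp42, at 1030 and 1030 against 1243 and 1166 CPM (0.23, adjusted p = 0.0169), were called higher. The call of Tfcp2l1 was lost without TF-AA replicate 2 (0.30, adjusted p = 0.0620), and that of Zfp42 without TF-AA replicate 1 (0.18, adjusted p = 0.340) or replicate 2 (0.27, adjusted p = 0.107). Klf2 at -0.20, Klf4 at 0.20 and Tbx3 at 0.17 were not called, but Klf4 was called without WT ESC replicate 1 (0.27, adjusted p = 0.00260) and Klf2 without WT ESC replicate 2 (-0.31, adjusted p = 0.000214) and with no filter (-0.21, adjusted p = 0.0350). With 1 library left out, Klf2 ranged from -0.31 to -0.09 and Klf4 from 0.12 to 0.27. Of the 7 LIF and STAT3 genes 5 were lower and 0 higher, among them Lifr (-0.74), the LIF receptor, and Pim1 (-0.80). Primitive endoderm markers summed to between 93.3 and 96.8 CPM in WT ESC and between 138 and 146 CPM in TF-AA libraries (2 of 5 tested higher, 2 of 7 with a mean under 1 CPM), and fibroblast markers to 11.0 to 11.7 and 24.0 to 24.7 CPM (3 of 3 tested higher, 3 of 6 with a mean under 1 CPM). Trophectoderm markers were at 80.9 to 81.7 and 98.8 to 105 CPM (3 of 4 tested higher, 0 lower), neural markers at 18.5 to 22.0 and 28.9 to 29.1 CPM (1 of 2 tested higher, 1 lower), and ESC markers at 3737 to 3860 and 3573 to 3600.0 CPM (1 of 8 higher, 3 lower). Of the 2 markers of the primitive streak and mesoderm tested 0 were called. Their part was not tested.

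The RYBP phase disruption raised 2 factors and lowered 3, and 5 were not called, where 33% of 14575 genes were called, 16.1% higher and 17% lower. Both phase disruption libraries lay above both controls for 3 factors and below both for 3, against 32.8% and 32.1% of all genes. Klf5 fell from 184 and 186 CPM in WT.RYBP libraries to 114 and 105 CPM (log2 fold change -0.76, SE 0.054, adjusted p = 2.49e-13). Nr0b1 fell from 75.6 and 78.0 to 49.2 and 53.1 CPM (-0.59, SE 0.070, adjusted p = 3.06e-08), and Zfp42 from 121 and 118 to 95.5 and 94.9 CPM (-0.33, adjusted p = 2.51e-05). Prdm14 rose from 12.0 and 10.4 to 16.9 and 17.0 CPM (0.60, SE 0.13, adjusted p = 0.000483). None of these 4 genes had overlapping groups.

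Tbx3 was called higher in the phase disruption as well, at 117 and 117 against 141 and 122 CPM (0.17, adjusted p = 0.0292), but this call was lost without any of 3 libraries. Its adjusted p was 0.134 without WT.RYBP replicate 1 and 0.150 without WT.RYBP replicate 2, where the log2 fold change stayed at 0.16, and 0.496 without phase disruption replicate 1, where it was 0.06. By DESeq2 it was 0.194 and with no filter 0.195, both at a log2 fold change of 0.16. Without phase disruption replicate 2 the value was 0.26. Klf2, Klf4, Tfcp2l1 and Nr5a2 had groups that overlapped and log2 fold changes between -0.04 and 0.01. Rybp itself was at 749 and 753 against 662 and 626 CPM (-0.22), so the phase disruption libraries held less Rybp mRNA than the WT.RYBP libraries. Of the formative and primed genes 6 of 9 were lower and 0 higher, including Fgf5 (-2.98) and Otx2 (-1.52), and of the other genes of the naive state 3 of 8 were higher, Fbxo15 (1.33) and Dppa3 (1.01) among them, and 2 lower. Fibroblast markers summed to between 421 and 428 CPM in WT.RYBP and between 341 and 364 CPM in phase disruption libraries (3 of 6 lower, 1 with a mean under 1 CPM), and trophectoderm markers to 388 to 396 and 490 to 513 CPM (4 of 6 tested higher, 1 of 7 with a mean under 1 CPM). Sums went from 38.4 to 40.2 to 45.5 to 45.9 CPM for primitive endoderm (2 of 6 tested higher, 0 lower), and from 165 to 184 to 141 to 144 CPM for neural markers (1 of 2 tested higher, 1 lower). They went from 21.2 to 25.8 to 27.8 to 29.8 CPM for the primitive streak and mesoderm (1 of 4 tested higher, 1 lower) and from 3437 to 3535 to 3309 to 3345 CPM for ESC markers (1 of 8 higher, 3 lower). Their part was not tested.

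Induction of RYBP in J1 ESCs raised Rybp from 135 and 145 to 522 and 535 CPM and changed 0 of the 10 factors by edgeR's quasi-likelihood test, where 6.02% of the 14937 genes tested were called, 3.63% higher and 2.39% lower. At an unadjusted p under 0.05 there were 3 factors, and DESeq2 called 1, Tbx3. Tbx3 was at 310 and 312 CPM with vehicle and at 280 and 278 CPM with DOX (log2 fold change -0.16, adjusted p = 0.0554, by DESeq2 0.0354). Prdm14 was at 43.4 and 39.5 against 34.5 and 32.9 CPM (-0.30, adjusted p = 0.0555) and Zfp42 at 1000 and 1012 against 1054 and 1077 CPM (0.08, adjusted p = 0.233). In each of these genes the DOX libraries lay to one side of the vehicle libraries.

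The number of calls in J1 ESCs depended on the vehicle libraries. It was 3 without vehicle replicate 1 (Klf5, Tbx3 and Zfp42) and 4 without vehicle replicate 2 (Klf2, Tbx3, Prdm14 and Zfp42), where 1566 and 1467 of all genes were called, against 899 with every library, and 406 and 409 without DOX replicate 1 and 2. Approximate 95% intervals of the log2 fold changes lay within -0.48 and 0.18 for all 10 factors. They were made from the SE and a normal distribution, so they are narrower than the quasi-likelihood test implies. Esrrb, at 951 and 904 against 923 and 934 CPM (0.00, interval -0.08 to 0.08), and Nr0b1, at 185 and 178 against 179 and 175 CPM (-0.03, interval -0.14 to 0.08), were among the 5 whose groups overlapped. Of all genes tested 23.9% had both DOX libraries above both vehicle libraries and 24.2% had both below, against 1 and 4 of the factors. In the same libraries 3 of the 8 other genes of the naive state were higher and 2 lower, with Fbxo15 (0.35) and Gbx2 (-0.64) at the ends. Of 9 formative and primed genes 1 was higher, the de novo DNA methyltransferase gene Dnmt3b (0.57), and 0 lower. Of 10 FGF and ERK genes 1 was higher, Egr1 (0.31), and 4 were lower, including the feedback phosphatase gene Dusp6 (-0.67). Marker sums are given with vehicle, then with DOX. They were 4169 to 4241 and 3926 to 3977 CPM for ESC markers (0 of 8 higher, 1 lower), 269 to 271 and 294 to 303 CPM for primitive endoderm (0 of 5 tested called) and 57.6 to 58.6 and 64.0 to 66.9 CPM for trophectoderm (1 of 4 tested higher, 0 lower). They were 3.90 to 4.64 and 8.21 to 9.57 CPM for the primitive streak and mesoderm (1 of 2 tested higher, 0 lower), and of neural and fibroblast markers 0 were called. Their part was not tested.

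All 10 factors were lower in the libraries labelled DOX of the rTRS line than in the NTC libraries. Of the 16291 genes tested 43.4% were called, 20.4% lower and 23% higher. Both libraries labelled DOX lay below both NTC libraries for all 10 factors, against 35.1% of all genes tested, with 36.2% above, and the median log2 fold change was -0.80 against 0.00 for all genes tested. These 10 calls held without any 1 library, with DESeq2, RLE factors, no filter on low counts and the replicate block, and 3 of them passed a threshold of an absolute log2 fold change above 1. One of the columns labelled DOX carries another line prefix than the other columns of its table and was matched by treatment and replicate number.

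Nr0b1 was at 74.0 and 70.2 CPM in NTC and at 16.6 and 17.6 CPM in the libraries labelled DOX (log2 fold change -2.08, SE 0.085, adjusted p = 1.61e-09). Zfp42 was at 881 and 897 against 271 and 282 CPM (-1.68, SE 0.055, adjusted p = 2.65e-10). Klf4 was at 203 and 189 against 95.7 and 84.6 CPM (-1.12, SE 0.075, adjusted p = 1.13e-07). These 3 fell by more than 1 on the log2 scale. Esrrb followed, at 747 and 757 against 386 and 382 CPM (-0.97), with Nr5a2 at 99.1 and 101 against 56.4 and 56.5 CPM (-0.83). The falls were -0.78 for Tbx3, -0.78 for Klf2, -0.68 for Klf5, -0.63 for Prdm14 and -0.35 for Tfcp2l1, which was at 563 and 624 against 462 and 471 CPM. Klf2 had the widest spread within a group, 323 and 255 against 195 and 142 CPM, and its value ranged from -1.03 to -0.57 with 1 library left out.

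Other lists moved in the same libraries. Of the 8 other genes of the naive state 6 were lower and 0 higher, with Tet2 (-1.99) and Tcl1 (-1.62) at the far end, and of 4 core pluripotency genes 3 were lower, Pou5f1 (-0.58) and Sox2 (-0.56) among them. Of the 7 LIF and STAT3 genes 3 were higher and 3 lower. Socs3, the feedback inhibitor induced by STAT3, was at 284 and 250 against 84.5 and 81.1 CPM (-1.69), and Lifr fell too (-1.40), while Pim1 rose (0.65). Of the formative and primed genes 6 of 9 were higher and 2 lower, Fgf5 going from 0.978 and 0.745 to 26.6 and 27.7 CPM (4.98) and Foxd3 falling (-1.81). Of the 7 WNT and TCF7L1 genes 5 were higher, Axin2 at 2.03, and 0 were lower.

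Markers of other cell types moved with these falls. Trophectoderm markers summed to between 250 and 260 CPM in NTC and between 985 and 1062 CPM in the libraries labelled DOX, with 5 of the 6 tested higher, 1 of 7 with a mean under 1 CPM, and Cdx2 and Gata3 below 1 CPM in NTC and between 6.68 and 10.2 CPM in the libraries labelled DOX. Markers of the primitive streak and mesoderm summed to between 4.21 and 5.42 and between 36.5 and 39.4 CPM (2 of 5 higher, T from 1.45 and 1.56 to 31.2 and 29.9 CPM, 2 with a mean under 1 CPM). The 8 ESC markers summed to between 4215 and 4489 and between 2900 and 3085 CPM, with 6 lower and 1 higher. Primitive endoderm markers were between 50.5 and 54.6 and between 30.1 and 32.8 CPM, with 2 of the 6 tested lower and 5 of 7 with a mean under 1 CPM. Neural markers were between 15.0 and 18.5 and between 45.8 and 48.4 CPM, with 1 of the 2 tested, Nes (1.55), higher and 1 lower, and fibroblast markers between 22.5 and 24.2 and between 21.6 and 27.5 CPM (1 of 3 tested higher, 1 lower). The part of these cell types in the falls of the factors was not tested.

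A model of the J1 and rTRS tables with an interaction term compared the difference between J1 DOX and vehicle libraries with that between the rTRS libraries labelled DOX and NTC. The differences were not equal for 9 of the 10 factors, where 29% of 16864 genes differed. The difference, J1 minus rTRS, was 2.07 for Nr0b1 (SE 0.092, adjusted p = 1.98e-11), 1.79 for Zfp42 (SE 0.066, adjusted p = 1.99e-12), 1.07 for Klf4 and 1.00 for Esrrb. It was 0.76 for Klf2, 0.76 for Klf5, 0.75 for Nr5a2, 0.65 for Tbx3, 0.37 for Tfcp2l1 and 0.36 for Prdm14, the last with an adjusted p of 0.0759. The log2 fold change of Rybp mRNA was 1.91 in J1 and -0.15 in rTRS ESCs, and line, construct and level of RYBP cannot be told apart.

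**Figure D3:**
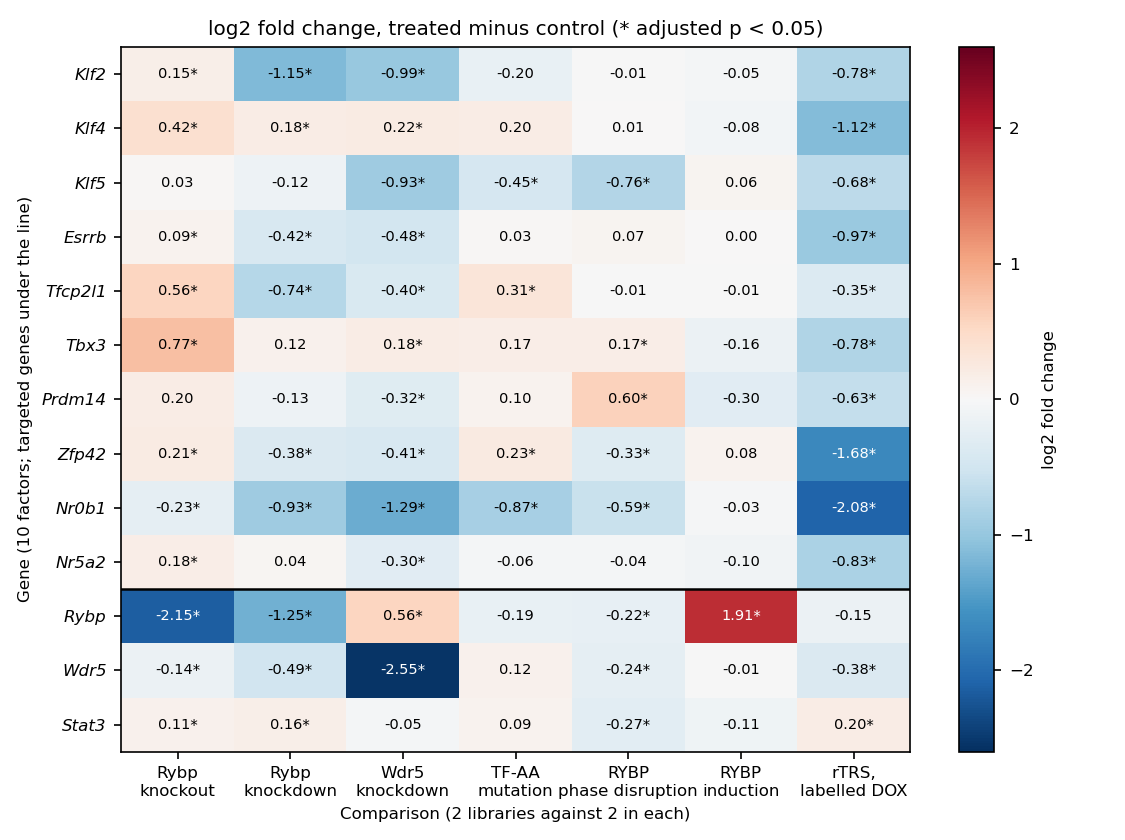
Log2 fold change, treated minus control, of the 10 factors and the 3 targeted genes (rows) in 7 comparisons (columns) of 2 libraries against 2, with a star for an adjusted p under 0.05. Nr0b1 is starred with a negative value in 6 of 7 columns, and the column of the rTRS libraries labelled DOX is negative for all 10 factors.

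Across the 7 comparisons Nr0b1 was lower in 6 and higher in 0, from -2.08 to -0.03, and Klf5 was lower in 4 and higher in 0. Zfp42 was lower in 4 and higher in 2. Klf4 and Tbx3 were each higher in 3 and lower in 1, the rTRS comparison. Tfcp2l1 was higher in 2 and lower in 3, Klf2 and Esrrb higher in 1 and lower in 3, and Prdm14 and Nr5a2 higher in 1 and lower in 2. Among the factors, the log2 fold changes over the 7 comparisons were most alike for Klf4 and Tbx3 (Pearson r = 0.929) and for Esrrb and Zfp42 (0.914), and least for Klf5 and Prdm14 (0.0342). Of the 7 comparisons 2 share the shEV libraries, so these values describe the pattern and carry no test.

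The gene of most similar pattern was sought for each factor among 9186 genes measured in all 7 tables at 5 CPM or more. The highest Pearson r over the 7 comparisons was 0.994 for Tfcp2l1 and Adrm1, 0.992 for Zfp42 and Epas1, 0.985 for Nr5a2 and Krt42 and 0.985 for Klf4 and Dhx33. It was 0.982 for Klf2 and E2f2, 0.982 for Esrrb and Uqcr10, 0.977 for Nr0b1 and Srd5a3, 0.976 for Klf5 and Mrpl16, 0.977 for Prdm14 and 8430419L09Rik, and 0.976 for Tbx3 and 2410002I01Rik. The r is that of the best of 9186 genes over 7 points, and it describes the pattern only.

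The loci were taken as the annotated gene with 50 kb on each side in mm9 (NCBIM37). Klf2 lies at chr8:74842932-74845555, Klf4 at chr4:55540013-55545347, Klf5 at chr14:99697910-99712624, Esrrb at chr12:87702067-87862578, Tfcp2l1 at chr1:120524522-120581744, Tbx3 at chr5:120120678-120134733, Prdm14 at chr1:13103538-13117244, Zfp42 at chr8:44380422-44392363, Nr0b1 at chrX:83437103-83441286 and Nr5a2 at chr1:138740161-138857004. Other protein-coding genes reach into the windows of Klf2 (Eps15l1 and Gm10282), Klf5 (Pibf1), Tfcp2l1 (Clasp1) and Prdm14 (Ncoa2). These windows held 529 of the 316354 peaks of the 14 lists. Fold enrichment is the value of the authors' peak caller, and its percentile is that among all peaks of the same list. The replicates had been merged before peak calling, or there was 1 sample, so no test between lists was made, and the lists themselves hold no depth.

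H3K4me3, the mark of active and poised promoters, had a peak within 2.5 kb of an annotated start site of all 10 factors in both Rybp+/+ and Rybp-/- ESCs, where 67.8% and 68% of protein-coding genes had one. H3K27ac, the mark of active promoters and enhancers, had a promoter peak at 9 factors in both genotypes (51.6% and 54.8% of protein-coding genes), the exception being Prdm14. The H3K27ac peaks at Klf2 (38.5-fold, percentile 98.9) and Esrrb (39.8-fold, percentile 99.0) were among the strongest of the Rybp+/+ list. Nr0b1 was at the other end, with a single H3K27ac peak of 4.76-fold (percentile 61.2) in Rybp+/+ and 3.86-fold (percentile 50.9) in Rybp-/- ESCs.

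Peaks of H3K27ac at the 10 loci spanned 279 kb in the Rybp+/+ list and 241 kb in that of Rybp-/-, or 86.5% of the first length, where the whole lists gave 95.2%. The covered length was smaller in Rybp-/- ESCs at 7 loci and larger at 3, and 55.5% of protein-coding genes had a smaller length. The promoter peak of Klf2 extended over 27.6 kb with Rybp and 11.3 kb without it, and those of Esrrb over 48.2 kb and 23.1 kb. At Klf2 the whole locus was covered over 52.8 kb and 41.6 kb, with 20 and 23 peaks. At Esrrb it was covered over 58.8 kb and 62.0 kb, with 14 and 24 peaks across the locus, and 2 of them in each list were promoter peaks. For Klf4 the covered length was 26.4 kb and 17.6 kb with 3 peaks in each list. H3K4me3 covered 126 kb and 115 kb (91.4%, whole lists 96.0%), with less at 9 loci, where 63.4% of protein-coding genes had less.

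WDR5 had promoter peaks at 7 factors in Rybp+/+ and at 7 in Rybp-/- ESCs (46.8% and 49.2% of protein-coding genes). The strongest was that of Klf5, at 21.9-fold (percentile 96.3) and 22.1-fold (percentile 95.1). Prdm14 and Nr0b1 had no WDR5 peak anywhere in their windows in either genotype. Zfp42 had 1 peak of 0.281 kb in Rybp+/+ ESCs that had no counterpart in Rybp-/- ESCs, and Nr5a2 had a promoter peak only in the Rybp-/- list. WDR5 covered 9.56 kb and 12.9 kb at the 10 loci, more at 6 of them, where 65.8% of protein-coding genes had more.

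**Figure D4:**
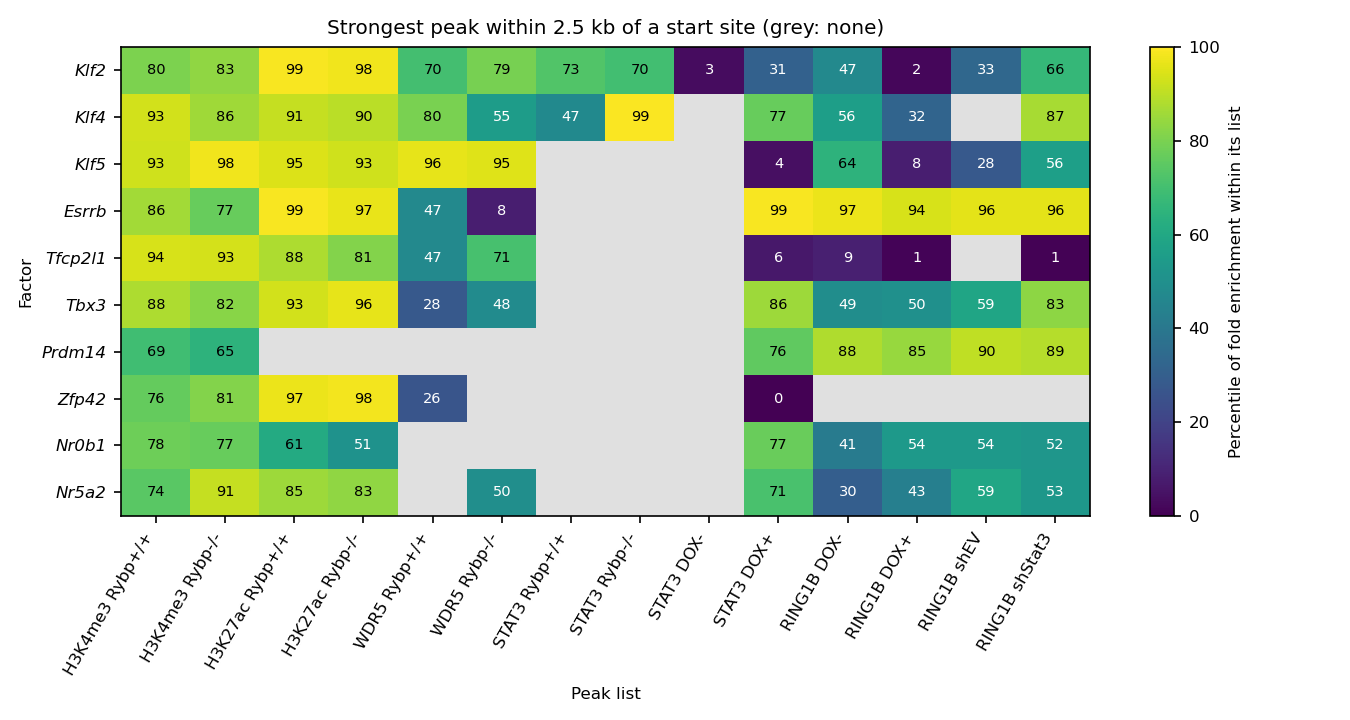
Percentile of fold enrichment, within its own list, of the strongest peak within 2.5 kb of a start site of each factor (rows) in the 14 peak lists (columns), grey where there is none. STAT3 fills 2 rows in the Rybp+/+ and Rybp-/- lists, 1 in the DOX- list and all 10 in the DOX+ list, and Zfp42 has no RING1B peak in any list.

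RING1B, the E3 ligase of Polycomb repressive complex 1, had promoter peaks at 9 factors in Tet.Rybp.Stat3 ESCs without DOX and at 9 with DOX (54.7% and 41.9% of protein-coding genes). It had them at 7 factors in shEV and at 9 in shStat3 ESCs (46% and 41.6%). Zfp42 had no RING1B peak in its window in any of the 4 lists. Esrrb had the strongest, at 44.4-fold (percentile 97.0) without DOX, 29.0-fold (94.0) with DOX, 39.4-fold (95.8) in shEV and 39.6-fold (95.9) in shStat3 ESCs. Prdm14 came next, between 16.6-fold and 25.1-fold.

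Knockdown of Stat3 went with longer RING1B peaks at several of the loci, in lists from 1 sample each. The covered length was 23.2 kb in shEV and 55.9 kb in shStat3 ESCs, or 241%, where the whole lists gave 94.3%. It was larger at 7 loci, where 37.2% of protein-coding genes had a larger length, and smaller at 2, Esrrb and Nr0b1. Most of the gain lay at Tbx3, which went from 9.79 to 29.8 kb. Klf4 went from 0.803 to 5.21 kb, Nr5a2 from 1.85 to 6.42 kb and Prdm14 from 2.48 to 5.53 kb. The promoter of Klf4 had no RING1B peak in shEV and a peak of 4.27 kb at 22.2-fold (percentile 87.0) in shStat3 ESCs. Tet.Rybp.Stat3 ESCs without DOX, which carry no shStat3, had 5.16 kb at Klf4 and 5.82 kb at Prdm14, near the shStat3 lengths. Their promoter peak at Klf4 was of 3.82 kb at 5.85-fold. They had 11.3 kb at Tbx3 and 3.57 kb at Nr5a2, below the shStat3 lengths. Whether shEV was low or shStat3 high at a locus was not tested. With DOX in Tet.Rybp.Stat3 ESCs the covered length was 34.2 and 32.2 kb (94.0%, whole lists 84.1%), with less at 8 loci, where 83.4% of protein-coding genes had less, and more at Tbx3, at 11.3 and 14.0 kb.

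STAT3, the transcription factor activated by LIF, had few peaks in R7.15 ESCs across the genome, 2363 in the Rybp+/+ list and 1917 in that of Rybp-/-. Its lists, from 1 sample each, held 3 peaks at the 10 loci in Rybp+/+ and 3 in Rybp-/- ESCs, all at the promoters of Klf2 and Klf4, where 7.78% and 6.56% of protein-coding genes had a promoter peak. At Klf4 the strongest peak was 4.25-fold (percentile 47.4) in Rybp+/+ and 9.23-fold (percentile 99.4) in Rybp-/- ESCs. At Klf2 it was 5.02-fold (percentile 73.0) and 5.04-fold (percentile 69.8). In each list 2 of the 3 peaks overlapped a peak of the other, where 18.7% of all Rybp+/+ and 23.2% of all Rybp-/- STAT3 peaks did.

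In Tet.Rybp.Stat3 ESCs 5 STAT3 peaks lay at the 10 loci without DOX and 48 with DOX. A promoter peak was found at 1 factor, Klf2, without DOX and at all 10 with DOX, where the shares of protein-coding genes were 9.04% and 57.6%. The length covered was 1.59 kb and 30.1 kb, and it was larger with DOX at all 10 loci, as at 99.4% of protein-coding genes, so the gain follows that of the whole lists, from 2816 to 30663 peaks. The strongest peak with DOX was that of Esrrb, at 13.6-fold (percentile 99.1), and the promoter peak of Zfp42 was at 2.13-fold (percentile 0.14). None of the 5 peaks found without DOX reached a -log10 q of 5, and 32 of the 48 found with DOX did.

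**Figure D5:**
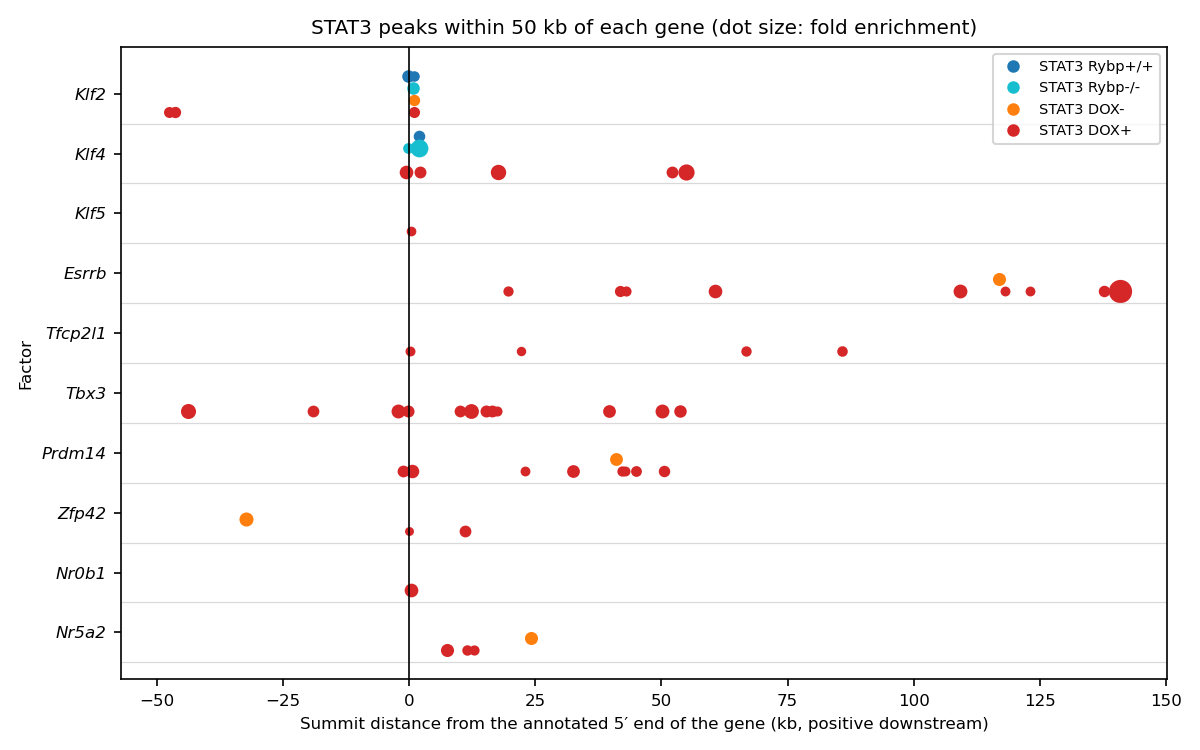
Distance of each STAT3 summit from the annotated 5′ end of the gene (horizontal axis, kb) for the 10 factors in 4 STAT3 lists, with dot size for fold enrichment. Red dots, the 48 peaks of the DOX+ list, are found at every gene, and blue and cyan dots, the lists of Rybp+/+ and Rybp-/- ESCs, at Klf2 and Klf4.

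The sequences under the STAT3 summits show how much the called sites differ in base composition. Each is 200 bases around a summit, on the plus strand of mm9 (NCBIM37), with the STAT motif TTCNNNGAA, which reads the same on both strands, in capitals where it was found. The Klf2 and Klf4 windows are shown because they are the peaks of R7.15 ESCs. The first lies upstream of the start site of Klf2, from chr8:74842650-74842849 in the Rybp+/+ list, and the second in the coding sequence of Klf4, from chr4:55543373-55543572 in the Rybp-/- list. Neither holds the motif.
Klf2, Rybp+/+: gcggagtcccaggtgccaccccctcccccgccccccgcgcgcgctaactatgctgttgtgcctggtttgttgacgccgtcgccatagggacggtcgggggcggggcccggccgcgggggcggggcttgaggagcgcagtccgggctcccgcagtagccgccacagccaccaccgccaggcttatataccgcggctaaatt
Klf4, Rybp-/-: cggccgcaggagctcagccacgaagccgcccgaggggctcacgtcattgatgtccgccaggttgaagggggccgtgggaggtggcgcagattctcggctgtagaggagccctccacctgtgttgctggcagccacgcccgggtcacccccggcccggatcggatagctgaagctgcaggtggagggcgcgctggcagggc

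The DOX+ windows of Esrrb, at chr12:87842797-87842996, the strongest STAT3 peak at the 10 loci and near an internal start site of the gene, and of Nr0b1, at chrX:83437346-83437545 in its coding sequence, stand for the factors with promoter peaks in the list with DOX and none in that without. They did not hold the motif either.
Esrrb, DOX+: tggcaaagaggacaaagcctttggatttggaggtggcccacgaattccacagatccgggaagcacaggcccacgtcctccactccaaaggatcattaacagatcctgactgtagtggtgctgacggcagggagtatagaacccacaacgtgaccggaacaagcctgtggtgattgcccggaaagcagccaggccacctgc
Nr0b1, DOX+: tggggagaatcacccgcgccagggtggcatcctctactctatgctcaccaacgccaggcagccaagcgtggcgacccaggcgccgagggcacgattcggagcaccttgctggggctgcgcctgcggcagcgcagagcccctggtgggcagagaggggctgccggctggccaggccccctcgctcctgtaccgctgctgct

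Windows with the motif were found at Zfp42, Tbx3 and Prdm14. They are shown at chr8:44424642-44424841, 32.4 kb upstream of Zfp42, which was called without DOX, at chr5:120076716-120076915, 43.9 kb upstream of Tbx3, and at chr1:13084759-13084958, 32.4 kb downstream of the start of Prdm14, both called with DOX. All 3 lie outside the gene they are named for.
Zfp42, DOX-: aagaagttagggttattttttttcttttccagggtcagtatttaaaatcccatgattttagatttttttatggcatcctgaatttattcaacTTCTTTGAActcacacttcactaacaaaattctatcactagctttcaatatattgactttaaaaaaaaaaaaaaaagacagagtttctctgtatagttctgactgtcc
Tbx3, DOX+: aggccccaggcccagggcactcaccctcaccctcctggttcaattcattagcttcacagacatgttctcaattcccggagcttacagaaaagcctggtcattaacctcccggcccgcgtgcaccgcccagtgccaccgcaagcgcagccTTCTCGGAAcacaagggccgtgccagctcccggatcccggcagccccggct
Prdm14, DOX+: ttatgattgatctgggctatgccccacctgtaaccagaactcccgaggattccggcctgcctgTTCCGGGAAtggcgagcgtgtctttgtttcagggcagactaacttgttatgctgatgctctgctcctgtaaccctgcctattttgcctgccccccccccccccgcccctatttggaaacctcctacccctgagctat

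The motif was present in 0 of the 3 Rybp+/+ windows at these loci, 0 of the 3 Rybp-/- windows, 1 of the 5 DOX- windows and 4 of the 48 DOX+ windows. Over all peaks of those lists it was present in 3.68%, 3.23%, 3.62% and 3.80% of windows, and in 5.49% of the 200 bases upstream of the start of 22367 protein-coding genes. Median GC content over all peaks was 71.0% in the Rybp+/+ list, 73.0% in the Rybp-/- list, 73.0% in the DOX- list and 62.0% in the DOX+ list, and 55.5% upstream of start sites. Of the 4 DOX+ windows with the motif 1 lay at Tbx3 and 3 at Prdm14, and 0 of the 4 lay at a promoter.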

How the data were processed

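The authors trimmed RNA-seq reads with Trim Galore, aligned them to mm9 with STAR and deposited htseq-count counts per gene in 7 tables, 4 libraries each, with the shEV libraries in 2 of them at different totals. Reads off genes (13.7% to 26.5% in 6 tables, not listed in the J1 table) were left out of library sizes. The gene length deposited in 6 tables, identical in each, served for RPKM in all 7. The authors aligned ChIP-seq reads with Bowtie2, merged replicates and called peaks with MACS2, and deposited each peak's fold enrichment and -log10 q value. The lowest -log10 q was 1.01 to 1.04 in the RING1B lists and 1.30 to 1.38 in the others. These limits are looser than the false discovery rate the paper states, and all listed peaks were kept except in the alternatives. Columns were matched to samples by table, treatment and replicate number. EV was taken as shEV, NTC of the J1 table as vehicle, WT of the phase disruption table as WT.RYBP, and S5-DOX of the rTRS table as rTRS DOX replicate 2, names that differ from the labels.

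Of 37620 gene IDs 37205 were paired with a symbol, and 98 of 102 list genes were matched. Each table was tested on its own with edgeR 4.0.16 (TMM, filterByExpr, quasi-likelihood test, two-sided, Benjamini-Hochberg over all genes tested, adjusted p under 0.05) in R 4.3.3, and tested first on simulated data. CPM were TMM-scaled. Peaks were read with Python 3.11.15. The 10 factors, the targeted genes and, per list, at most 2 genes that rose and 2 that fell most at 1 CPM or more were named. The factors and lists were chosen with earlier results of these data known. Alternatives were DESeq2 1.42.0, RLE factors, no filter, a replicate block, libraries left out, a fold threshold and other peak windows. ChIP-seq of the TF-AA mutation and the phase disruption is not analysed here. Replicate libraries differed by more than counting noise (chi-square per gene 2.21 to 15.0), and each was counted as a library. This excess does not show that they came from separate cultures.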

Additional observations from a re-analysis of the deposited data

Results flagged for a closer look

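The change from Rybp+/+ to Rybp-/- R7.15 ESCs differed from that from shEV to shRybp R1 ESCs for 9 factors by the interaction test of the edgeR quasi-likelihood fit, with line, 4-OHT and the Rybp mRNA left confounded, where 40.5% of 18203 genes differed. Nr5a2 (0.16, adjusted p = 0.0894) was not shown to differ. The log2 difference, knockout minus knockdown, was 1.33 for Tfcp2l1, 1.33 for Klf2, 0.72 for Nr0b1, 0.68 for Tbx3, 0.61 for Zfp42, 0.53 for Esrrb, 0.36 for Prdm14, 0.26 for Klf4 and 0.18 for Klf5.

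The change from vehicle to DOX in J1 differed from that from NTC to the libraries labelled DOX in the rTRS line for 9 factors by the same test, with line, construct and level of RYBP confounded, where 29% of 16864 genes differed. Prdm14 (0.36, adjusted p = 0.0759) was not shown to differ. The log2 difference, J1 minus rTRS, was 2.07 for Nr0b1, 1.79 for Zfp42, 1.07 for Klf4, 1.00 for Esrrb, 0.76 for Klf2, 0.76 for Klf5, 0.75 for Nr5a2, 0.65 for Tbx3 and 0.37 for Tfcp2l1.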

How the results depend on the processing

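Of 560 values of the factors under the alternatives, 500 kept their direction and their side of the threshold, 16 lost a call, 25 gained one and 19 changed sign, none of these 19 a called value. With 2 libraries a group, a missed call does not show that values did not differ, and the peak lists hold no depth.

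Adding an absolute log2 fold change above 1 left 0 factors called in the knockout, 1 in the Rybp knockdown, 1 in the Wdr5 knockdown, 0 in TF-AA, 0 in the phase disruption and 3 in rTRS, and 1330, 2088, 2815, 1176, 986, 135 and 1953 genes in the 7 comparisons, J1 sixth. The genes called without this threshold were 7720, 8721, 9547, 4412, 4814, 899 and 7070. DESeq2 called 2903 genes in TF-AA and 2659 in the phase disruption, and 1 factor in J1, as did no filter on low counts.

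The replicate numbers are not stated to pair the libraries. The correlation across genes of the deviations of equal numbers lay between -6.25e-05 and 0.201 in the 7 comparisons. With the replicate block, called factors were 8 in the knockout, 8 in the Rybp knockdown, 10 in the Wdr5 knockdown, 7 in TF-AA, 5 in the phase disruption, 2 in J1 and 10 in rTRS, with 7724, 9110, 9865, 5525, 5172, 1211 and 8559 genes called, and 63 of 70 factor values kept their call. The calls gained were Klf5 (adjusted p = 0.00817) and Tbx3 (0.00121) in the Rybp knockdown, Klf2 (0.0139), Klf4 (0.00913) and Tbx3 (0.0252) in TF-AA, and Tbx3 (0.0360) and Prdm14 (0.0294) in J1. The block also called Rybp lower in rTRS (-0.15, adjusted p = 0.00578) and in TF-AA (-0.18, adjusted p = 0.0183).

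With 1 library left out, called factors ranged from 7 to 8, 5 to 7, 9 to 10, 2 to 5, 4 to 5, 0 to 4 and 10 to 10 in these comparisons, and called genes from 6081 to 7197, 6941 to 8463, 8272 to 9020, 2724 to 4767, 3400 to 4063, 406 to 1566 and 6036 to 6587. The genes called moved by over 1.5 times without either TF-AA library (2724 and 2733) and without each J1 library (1566, 1467, 406 and 409). The lone library of a group is then assumed to vary like the others.

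Changes of sign came mostly with 1 library left out. The log2 fold change then ranged from -0.0204 to 0.0858 for Klf5 in the knockout, from -0.0201 to 0.0930 for Nr5a2 in the Rybp knockdown and from -0.00851 to 0.0474 for Esrrb in TF-AA. In the phase disruption it ranged from -0.0397 to 0.0169 for Klf2, from -0.0364 to 0.0421 for Klf4, from -0.0706 to 0.0321 for Tfcp2l1 and from -0.20 to 0.10 for Nr5a2. In J1 it ranged from -0.12 to 0.0299 for Klf2, from -0.0605 to 0.19 for Klf5, from -0.0346 to 0.0400 for Esrrb, from -0.0522 to 0.0421 for Tfcp2l1 and from -0.0341 to 0.0111 for Wdr5. Klf4 in the phase disruption was at -0.00204 with DESeq2 and at -0.00219 with no filter, and Esrrb in J1 at -0.000916 with no filter. The cause was not tested.

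A -log10 q of at least 5 left 82 of 127 H3K27ac and 9 of 15 WDR5 peaks in Rybp-/-, 0 of 5 STAT3 peaks in DOX-, and 13 of 23, 8 of 17 and 11 of 22 RING1B peaks in DOX-, DOX+ and shEV ESCs. A window of 25 kb left 3 STAT3 peaks in DOX-. The 100 kb window, both other promoter windows and the stricter overlap moved no peak count by more than 1.5 times.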
